A study of Mus musculus with 6 samples.

Results

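Genes for splicing factors and RNA-binding proteins were followed in messenger RNA from mouse midbrain, as the set of all genes in the deposited table whose symbol starts with Srsf, Snrp, Hnrnp, Sf3, Prpf, U2af, Lsm, Rbm, Celf or Ddx. The rule reads names only, and it found 106 of the 5538 genes in the table. These were 9 Srsf, 15 Hnrnp, 5 Celf, 19 Rbm, 11 Snrp, 7 Sf3, 3 U2af, 9 Prpf, 12 Lsm and 16 Ddx genes. All 106 matched the mouse annotation by identifier and are protein-coding there. The annotation holds 172 protein-coding genes with these prefixes, and the other 66 were not analysed here. A prefix is not a function, so some members, among them several Ddx helicases of ribosome assembly, do not act in splicing.

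The tissue was the perioculomotor (pIII) region, the midbrain around the oculomotor nucleus, of C57BL/6 mice. All mice carried CreER, a recombinase that 4-OHT activates, under the Fos promoter, and a Cre-inducible reporter for eGFP-L10a, a ribosomal protein fused to green fluorescent protein. All went through 6 hr of sleep deprivation and 3 hr of recovery sleep, with 4-OHT given just before one of these phases; the series text names cells tagged in recovery sleep, and the labels of single libraries carry only IP or Input and a number. IP is RNA that came down with eGFP antibodies from tagged ribosomes, Input is taken to be tissue RNA before that step, and there were 3 libraries of each, each from tissue of 4 to 5 pooled mice. The ages of the mice were not used here. Fos drives the recombinase in any cell type that switches on this gene, so the tag alone does not name a cell type. IP was compared with Input to ask which of these transcripts were more or less abundant on the ribosomes of tagged cells than in the tissue.

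Splicing removes introns from nuclear transcripts and is carried out by the spliceosome, which is built from small nuclear ribonucleoproteins (snRNPs) and many further proteins. Sm and LSm proteins form rings around the small nuclear RNAs, SF3 and U2AF proteins help to recognise the branch point and the end of the intron, and PRPF proteins act in the tri-snRNP and the catalytic core. SR proteins, hnRNPs, CELF and many RBM proteins bind the transcript and steer which exons are kept, and DEAD-box (DDX) helicases remodel RNA and its complexes. Neurons use alternative splicing widely, and several of these regulators, such as the CELF proteins, are abundant in brain.

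The values are TPM, a unit of transcript abundance on a fixed total per library, which correct for transcript length and keep no read depth. Read depth is therefore unknown. Differences between IP and Input are given on the log2(TPM + 1) scale after the median gene of each library was subtracted, so 0 stands for a gene that moved with the median gene. Without this step the median gene itself differed by -0.23 between IP and Input. Below, a gene said to stand above or below the median gene has a difference above or below 0, whatever its level. The median gene lay between 27.7 and 56.5 TPM in the IP libraries and between 31.1 and 67.2 in the Input libraries.

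IP 1 and Input 3 stood apart from the other libraries. Over the 106 members on the log2 scale, IP 2 correlated with IP 3 at r = 0.936 and Input 1 with Input 2 at 0.936, whereas IP 1 correlated with the other 5 libraries at 0.626 to 0.789 and Input 3 with the other 5 at 0.626 to 0.806. Members share their libraries, so these correlations only describe the libraries. Of the 106 members, 40 (37.7%; 26.2% of all genes) had their highest centred value in Input 3, and 22 (20.8%; 30.6% of all genes) in IP 1. The lowest value was in IP 1 for 38 members (35.8%; 23.7% of all genes). The members took 0.561%, 0.939% and 0.893% of the listed TPM in IP 1, 2 and 3 and 1.23%, 1.21% and 0.718% in Input 1, 2 and 3. The main results below are therefore also given for IP 2 and 3 against Input 1 and 2, a comparison chosen after the data were seen. Neuron markers were all listed (9 of 9, summing to 3371 to 8327 TPM in IP and 4342 to 8014 in Input). Of the glial and vascular lists, oligodendrocyte markers summed to 365 to 4437 TPM in IP and 536 to 4877 in Input (6 of 7 listed), and astrocyte markers to 57.5 to 157 in IP and 89.6 to 394 in Input (3 of 8 listed). The listed microglial marker Ctss (1 of 8) stood at 12.03 to 15.7 TPM in IP and 15.3 to 35.6 in Input. The listed endothelial marker Ly6c1 (1 of 5) stood at 50.3 to 278.1 TPM in IP and 21.9 to 35.4 in Input, and neither oligodendrocyte precursor marker was listed (0 of 2). The part of other cells in the differences below was not tested.

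With all 6 libraries, no member passed the test. At the adjusted p threshold of 0.05, limma called 0 members higher and 0 lower, and the same fit called 0% of all 5538 genes higher and 0% lower, with a smallest adjusted p of 0.649. At an unadjusted p under 0.05, Srsf9, Prpf8 and Rbms1 stood higher in IP and Sf3b6, Hnrnpr and Celf4 lower, 3 members in each direction, against 3.58% of all genes higher and 3.85% lower. All 3 IP values lay above all 3 Input values in 4 members (3.77%; 6.93% of all genes) and below them in 13 (12.3%; 9.71% of all genes). Of the 106 members, 39 (36.8%) stood above the median gene, against 51.8% of all genes, and the members' median difference was -0.12. The sign of the difference was the same in all 6 fits that left out 1 library for 56 members, of which 16 were higher and 40 lower in IP. These fits share most of their libraries, and the matching count over all genes is not given here. The 56 are therefore no result about the members. In bulk RNA, fewer cells of a type and less RNA per cell cannot be told apart.

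Without IP 1 and Input 3, limma called 1 member higher in IP, Prpf8, and 1 lower, Celf6, against 3.38% of all genes higher and 2.89% lower. Both IP values lay above both Input values in 20 members (18.9%; 25.2% of all genes) and below them in 37 (34.9%; 31.5% of all genes). Here 40 members (37.7%) stood above the median gene, against 46.2% of all genes. On the same 4 libraries without centring on the median gene, 0 members were called higher and 15 lower (14.2%), where 2.18% of all genes were called higher and 16.9% lower. The number of members called lower thus rested on the scaling, and in neither scaling was it a larger share than that of all genes.

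**Figure D1:**
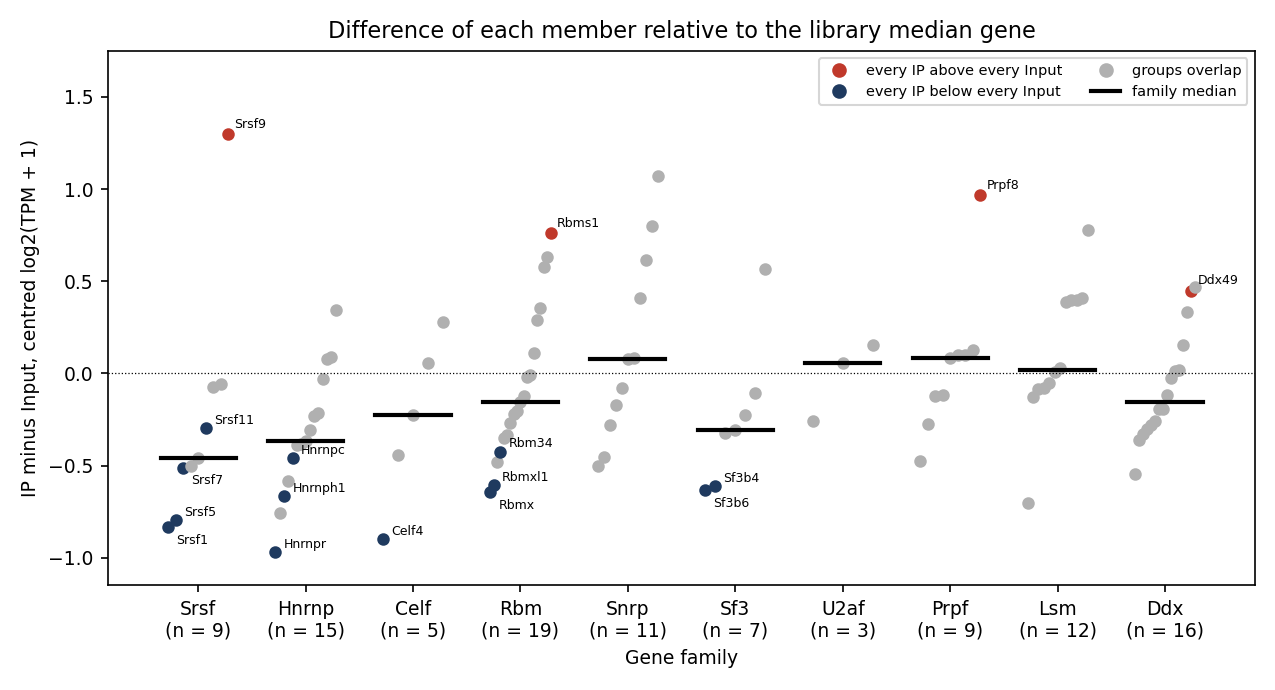
Difference between IP and Input (y axis, log2 units relative to the median gene) for each of the 106 members, grouped by family, with the family median as a black bar. Red points have every IP value above every Input value, dark blue points every IP value below, and grey points overlap. Of the Srsf genes all but Srsf9, at 1.30, lie below 0.

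SR proteins bind exonic enhancers through RNA recognition motifs and recruit the spliceosome through domains rich in arginine and serine. Of the 9 Srsf genes, 8 stood below the median gene and 1, Srsf9, above it, and the family median was -0.46 (-0.23 without IP 1 and Input 3). None passed the test in either comparison. Srsf9 stood at 103, 85.0 and 103 TPM in IP 1, 2 and 3 and at 68.7, 61.7 and 22.9 TPM in Input 1, 2 and 3. All IP values lay above all Input values, and Input 3 was the lowest. The difference was 1.30 (SE 0.36, limma adjusted p = 0.649), and 0.81 without IP 1 and Input 3 (adjusted p = 0.0616). Srsf1, a founding member of the SR family, went the other way, with 8.73, 36.1 and 32.2 TPM in IP, compared with 50.6, 48.1 and 43.7 TPM in Input. IP 1 was far below the other libraries, and IP 2 and 3 were below every Input library by a smaller margin. Its difference was -0.84 (SE 0.37), and -0.23 without IP 1 and Input 3. Srsf5 stood at 45.9, 162 and 93.8 TPM in IP, compared with 190.2, 195 and 168 TPM in Input, also with no overlap on the centred scale, for a difference of -0.80 (SE 0.35) that was -0.35 without those libraries. Srsf3, the smallest classical SR protein, had 65.1, 127 and 167 TPM in IP, compared with 181, 185 and 181 in Input, and -0.46 became -0.04. The differences of Srsf1, Srsf5 and Srsf3 were thus nearer 0 without IP 1 and Input 3.

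Promoters of 4 members are shown, picked after their values were seen. Srsf9 and Hnrnpr are the members with the highest and the lowest difference, Srsf1 is the lowest of the Srsf family, and Prpf8 is the member called higher without IP 1 and Input 3. Each run is the 150 bases before the RefSeq start (GRCm38.p6, plus strand), with matches to a GC box (GGGCGG) or a CCAAT box (CCAAT), on either strand, in capitals.
Srsf9, chr5:115327027-115327176: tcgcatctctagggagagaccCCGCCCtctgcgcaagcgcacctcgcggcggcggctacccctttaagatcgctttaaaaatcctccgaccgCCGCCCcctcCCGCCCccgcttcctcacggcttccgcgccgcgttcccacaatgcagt
Prpf8, chr11:75486627-75486776: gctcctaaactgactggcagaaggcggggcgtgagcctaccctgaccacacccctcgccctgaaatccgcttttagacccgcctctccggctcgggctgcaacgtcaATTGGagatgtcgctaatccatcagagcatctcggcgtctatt
Srsf1, chr11:88047223-88047372: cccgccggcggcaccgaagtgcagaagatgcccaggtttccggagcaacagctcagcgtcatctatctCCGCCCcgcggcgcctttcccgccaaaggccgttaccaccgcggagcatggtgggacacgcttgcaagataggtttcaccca
Hnrnpr, chr4:136310792-136310941: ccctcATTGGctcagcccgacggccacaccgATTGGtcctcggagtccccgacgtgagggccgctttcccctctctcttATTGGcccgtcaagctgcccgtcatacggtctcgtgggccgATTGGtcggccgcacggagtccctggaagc
The Srsf9 run holds 3 GC box matches and no CCAAT, the Hnrnpr run 4 CCAAT matches and no GC box. The Prpf8 run holds 1 CCAAT and the Srsf1 run 1 GC box. None of the 4 holds a match to the other motifs searched, a TATA box (TATAAA), the core of ETS factor sites (CCGGAAG), the NRF1 core (GCATGCGC) and the palindrome bound by BANP (CTCGCGAG). RefSeq windows of 300 bases, from 250 before to 50 after the start, were matched for 92 of the 106 members. CCAAT occurred in 52.2% of these, against 39.6% of 4288 listed genes with a window and 37.9% of all 27025 windows. GGGCGG occurred in 59.8%, 66.7% and 35.9%, and the TATA box in 11.96%, 6.39% and 14.2%. The ETS core occurred in 28.3%, 22.2% and 9.12%. The NRF1 core occurred in 6.52%, 6.51% and 2.80%, and the BANP palindrome in 5.43%, 2.24% and 0.958%. The median GC content was 59% for members, 61% for listed genes and 52.7% for all windows. No binding was measured, and a match is only a match of letters.

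Heterogeneous nuclear ribonucleoproteins coat nascent transcripts and often oppose SR proteins at splice sites. Of the 15 Hnrnp genes, 12 stood below the median gene, and the family median was -0.37 (-0.14 without IP 1 and Input 3). None was called. The family median by library was -0.08, 0.87 and 0.77 log2 units relative to the library's median gene in IP 1, 2 and 3, and 0.97, 0.89 and 1.22 in Input 1, 2 and 3. IP 2 and 3 thus lay just under Input 1 and 2, and IP 1 lay far below all. Hnrnpr, whose product binds messenger RNA in the nucleus and in axons, stood at 11.7, 63.8 and 48.5 TPM in IP, compared with 107, 76.4 and 59.5 TPM in Input. IP 1 was lowest and Input 1 highest, and on the centred scale the groups did not overlap. Its difference was -0.97 (SE 0.40, adjusted p = 0.649), the lowest of all members, and -0.41 without IP 1 and Input 3 (adjusted p = 0.323). Hnrnpa2b1, a reader of RNA transport signals, stood at 48.0, 224 and 168 TPM in IP, compared with 269, 255.6 and 217 in Input. Its difference of -0.76 was -0.14 without those libraries. Hnrnpc, which binds uridine tracts, had 43.4, 107 and 87.5 TPM in IP, compared with 141, 161 and 79.1 in Input, and its difference moved little, from -0.46 (SE 0.23) to -0.34. Hnrnpk, a poly(C)-binding protein, was the most abundant Hnrnp gene, at 147, 548 and 464 TPM in IP, compared with 697, 585 and 346 in Input, for -0.39 and -0.05. Hnrnpa1, a repressor of exon inclusion, stood at 138, 139.7 and 173 TPM in IP, compared with 159, 131 and 229 in Input; its groups overlapped, and its difference of 0.08 took the other sign without centring (-0.17). Hnrnpab had 41.9, 97.6 and 89.5 TPM in IP, compared with 139.7, 155 and 13.3 in Input. Its difference of 0.34 (SE 0.61) rested on Input 3, and was -0.43 without that library and -0.36 without IP 1 and Input 3. The other 9 Hnrnp genes lay between -0.67 and 0.09.

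**Figure D2:**
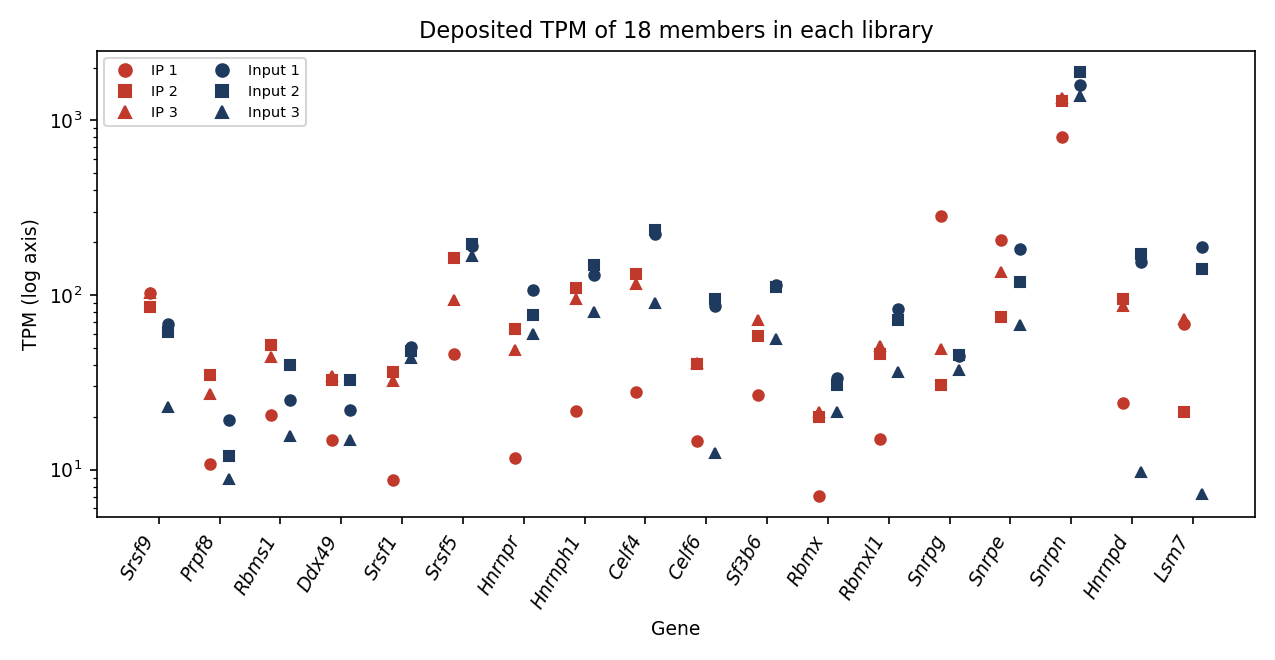
TPM (log axis) of 18 members in each of the 6 libraries, coloured red for IP and dark blue for Input, with circles for replicate 1, squares for 2 and triangles for 3. All IP points of Srsf9 lie above its Input points, all IP points of Srsf1, Srsf5 and Snrpn lie below theirs, and the IP 1 circle is the lowest point of Hnrnpr and Celf4.

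CELF proteins bind uridine-guanosine repeats and regulate splicing, stability and translation, and several are strong in neurons. The 5 Celf genes split. Celf2 (0.28) and Celf1 (0.06, or -0.19 without centring) had differences above 0. Those of Celf4 (-0.90), Celf6 (-0.44) and Celf3 (-0.23) lay below 0, and Celf3 was named after its value was seen. Without IP 1 and Input 3 the values were 0.55, 0.42, -0.60, -0.85 and -0.42, with the same 2 genes above and 3 below. Celf6 (mm10 chromosome 9, 59577917 to 59607292, plus strand) stood at 14.5, 40.3 and 41.0 TPM in IP, compared with 86.5, 95.0 and 12.4 TPM in Input. Input 1 and 2 were above, and Input 3 below, every IP library, so the groups overlapped. With all libraries its difference had an SE of 0.48 and an adjusted p of 0.799. Without IP 1 and Input 3, limma gave -0.85 with an adjusted p of 0.0348, and it was also called lower there without centring (-1.14, adjusted p = 0.0129). Celf4, a brain protein that binds many synaptic messenger RNAs, stood at 27.7, 131 and 116 TPM in IP, compared with 223, 235 and 89.7 TPM in Input. On the centred scale all IP values lay below all Input values. Its difference was -0.90 (SE 0.37), and -0.60 without those libraries (adjusted p = 0.0822). Celf2 stood at 14.7, 38.7 and 22.9 TPM in IP, compared with 21.2, 28.8 and 19.9 in Input, with overlapping groups (SE 0.31). Celf1 had 14.8, 33.3 and 22.3 TPM in IP, compared with 27.6, 22.2 and 27.1 in Input (SE 0.38). The coding sequences of Celf4 and Celf6 are 71.8% identical over the aligned bases. No test of the difference between Celf genes was run.

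RBM is a naming series for proteins with an RNA recognition motif and spans many functions. Of 19 Rbm genes, 6 stood above the median gene and 13 below, with a median of -0.15 (0.05 without IP 1 and Input 3, with 11 above). Rbms1, a single-strand nucleic acid binding protein, stood at 20.5, 52.0 and 44.2 TPM in IP, compared with 25.1, 39.9 and 15.5 TPM in Input. On the centred scale all IP values lay above all Input values, for a difference of 0.76 (SE 0.25, adjusted p = 0.649) that was 0.87 (adjusted p = 0.0682) without IP 1 and Input 3. Rbm5, a regulator of apoptosis gene splicing, stood at 34.7, 79.4 and 88.6 TPM in IP, compared with 84.5, 57.1 and 25.02 in Input, for 0.58 (SE 0.28) and 0.56. Rbm3, a cold-inducible RNA-binding protein, had 43.1, 58.8 and 77.3 TPM in IP, compared with 93.4, 86.8 and 85.1 TPM in Input. Every Input value in TPM was above every IP value, but the difference of -0.35 relative to the median gene had an SE of 0.35, and was -0.024 without Input 3 and -0.12 without IP 1 and Input 3. Rbm39, a U2AF-related splicing factor, stood at 36.4, 69.0 and 71.9 TPM in IP, compared with 68.1, 80.6 and 97.8 in Input, and its difference of -0.27 was 0.22 without IP 1 and Input 3.

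Rbmx and Rbmxl1 have similar coding sequences, but Rbmx shared few exact stretches with other genes. Of stretches of 50 bases, 1.46% of those in Rbmx and 79.0% of those in Rbmxl1 also occurred in another gene. For Rbmxl1 the gene that shared most was Gm7324 (74.2%). Rbmx is an X-linked hnRNP-like gene and Rbmxl1 an autosomal copy of it, and their coding sequences are 90.9% identical. Coding bases 22 to 111 are printed with the 8 differing bases in capitals.
Rbmx: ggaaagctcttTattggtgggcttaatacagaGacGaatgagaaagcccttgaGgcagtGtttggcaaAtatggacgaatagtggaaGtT
Rbmxl1: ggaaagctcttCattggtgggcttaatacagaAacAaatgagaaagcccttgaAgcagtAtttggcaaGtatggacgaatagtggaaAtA
Rbmx stood at 7.05, 20.1 and 21.4 TPM in IP, compared with 33.4, 30.5 and 21.4 TPM in Input, and Rbmxl1 at 14.9, 46.0 and 50.8 TPM in IP, compared with 83.2, 71.6 and 36.4 in Input. Both were lowest in IP 1, and on the centred scale neither group overlapped the other. Their differences were -0.65 (SE 0.28) and -0.61 (SE 0.28), and -0.31 and -0.38 without IP 1 and Input 3. Rbm4 and Rbm4b, a pair with 86.1% identical coding sequence that was picked after its values were seen, differed in sign. Coding bases 415 to 504 hold 13 differing bases, in capitals.
Rbm4: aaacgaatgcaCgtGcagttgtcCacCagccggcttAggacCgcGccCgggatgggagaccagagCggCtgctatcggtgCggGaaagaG
Rbm4b: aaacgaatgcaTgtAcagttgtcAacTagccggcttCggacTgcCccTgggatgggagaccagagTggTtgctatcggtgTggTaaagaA
Rbm4 stood at 27.4, 44.3 and 24.8 TPM in IP, compared with 27.4, 39.9 and 11.9 TPM in Input (0.63, SE 0.32), and Rbm4b at 9.69, 43.9 and 53.6 TPM in IP, compared with 55.7, 57.1 and 25.7 in Input (-0.34, SE 0.38). Rbm4b was lowest in IP 1 and Rbm4 in Input 3, and without these libraries the differences were 0.29 and 0.07. The difference between the genes was not tested. Of stretches of 50 bases in the members' transcripts, 43 members shared none with another gene, 35 shared over 10% and 7 over 50%. Those 7, named for their overlap, were U2af1l4 (97.2%), Rbm42 (92.3%), Rbmxl1 (79.0%), Rbm4 (66.5%), Lsm7 (62.8%), Ddx18 (62.7%) and U2af1 (59.4%). How the authors' processing divided reads among copies is not stated, so the values of these 7 are uncertain. The same limit holds, for a smaller part of the transcript, for the other members over 10%. Among them were Sf3b4 (49.3%), Hnrnpa1 (46.4%), Lsm5 (44.0%), Hnrnpk (38.3%), Srsf3 (31.5%) and Srsf5 (27.8%).

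The Snrp genes encode the Sm ring and proteins specific to the U1 or U2 snRNP. Their median difference was 0.08 with 6 of 11 above the median gene, and -0.27 with 2 above without IP 1 and Input 3. The 8 Sm ring genes had a median of 0.24 that became -0.19, and the 3 U1 or U2 genes -0.45 that became -0.30. The median of all 11 Snrp genes by library was 1.17, -0.60 and -0.05 in IP 1, 2 and 3, against 0.30, 0.17 and 0.51 in Input 1, 2 and 3, so IP 1 was highest and IP 2 lowest. Snrpg, an Sm ring subunit, stood at 285, 30.4 and 49.2 TPM in IP, compared with 44.7, 45.1 and 37.3 TPM in Input. IP 1 alone was high, the difference of 1.07 had an SE of 0.99, and without IP 1 it was -0.19. Snrpf, another Sm ring subunit, stood at 45.8, 18.8 and 24.9 TPM in IP, compared with 29.9, 21.2 and 10.1 in Input, for 0.80 (SE 0.55) and 0.08 without IP 1 and Input 3. Snrpc, a U1 protein, stood at 21.4, 19.99 and 22.4 TPM in IP, compared with 36.3, 28.6 and 46.3 in Input (-0.50, SE 0.51), and its difference was 0.018 without Input 3 and -0.30 without IP 1 and Input 3. Snrpa1, a U2 protein, had 32.1, 35.9 and 44.9 TPM in IP, compared with 67.8, 75.7 and 44.5 in Input, and its difference was -0.45 (SE 0.29) and -0.53.

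Snrpn, an imprinted gene whose product SmN replaces SmB in neurons, was the most abundant member, and Snrpb encodes the SmB proteins found in most cells. Their coding sequences are 80.5% identical, and bases 145 to 234 are shown with the 18 differences in capitals because this pair holds the highest level in the set.
Snrpn: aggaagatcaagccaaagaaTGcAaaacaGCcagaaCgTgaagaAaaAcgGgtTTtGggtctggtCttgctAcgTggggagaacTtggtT
Snrpb: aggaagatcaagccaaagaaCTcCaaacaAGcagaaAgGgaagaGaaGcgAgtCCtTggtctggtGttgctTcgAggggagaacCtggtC
Snrpn stood at 799, 1293 and 1337 TPM in IP, compared with 1589.9, 1894 and 1375 TPM in Input. All IP values were lower than all Input values in TPM, but not on the centred scale, where the difference was -0.28 (SE 0.36), -0.041 without Input 3 and -0.11 without IP 1 and Input 3. Snrpb stood at 63.6, 163 and 141 TPM in IP, compared with 180.2, 216 and 73.8 TPM in Input, for -0.08 (SE 0.25) and -0.09. In TPM, which correct for length, Snrpn was above Snrpb in every library.

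**Figure D3:**
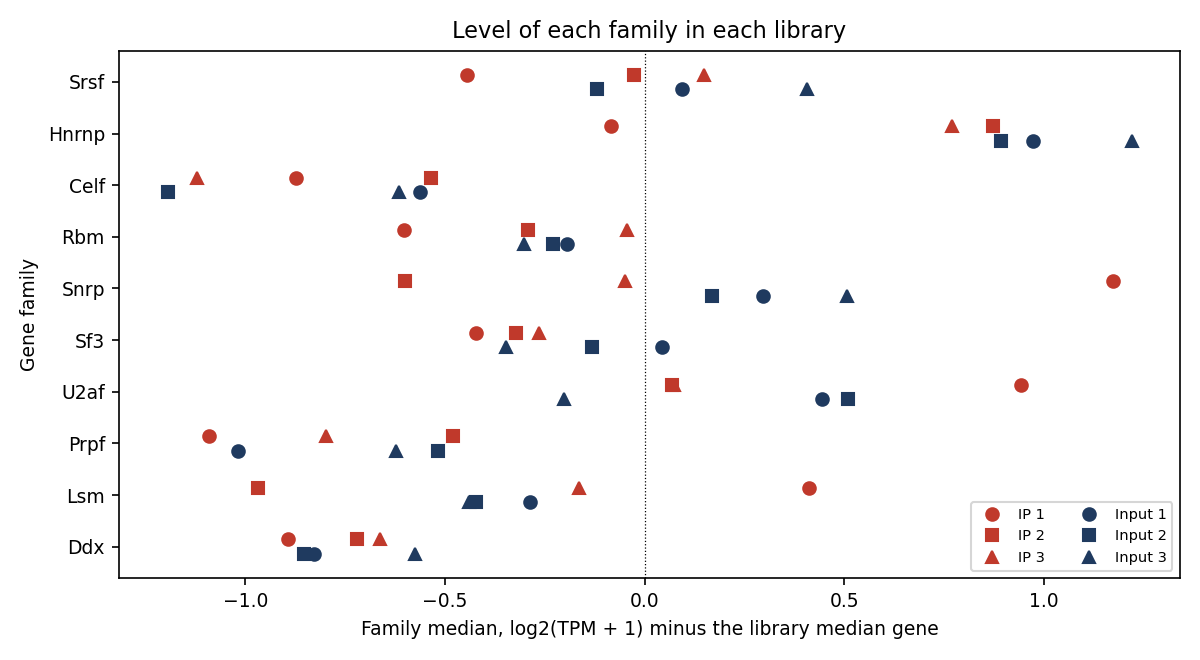
Median of each family in each library (x axis, log2(TPM + 1) minus the library's median gene), coloured red for IP and dark blue for Input, with circles for replicate 1, squares for 2 and triangles for 3. The Snrp and Lsm medians are highest in IP 1 and lowest in IP 2, and the Hnrnp median of IP 1, at -0.08, lies below that of every other library.

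SF3 proteins bind the branch point within the U2 snRNP. Of 7 Sf3 genes, 1 stood above the median gene in both comparisons, and the median was -0.31 (-0.20 without IP 1 and Input 3). Sf3b6, the subunit next to the branch point adenosine, stood at 26.6, 57.9 and 72.2 TPM in IP, compared with 114, 111 and 56.1 TPM in Input. On the centred scale all IP values lay below all Input values, for -0.63 (SE 0.24, adjusted p = 0.649) and -0.51 (adjusted p = 0.193). Sf3b4 stood at 20.4, 45.0 and 42.2 TPM in IP, compared with 71.3, 61.1 and 55.4 in Input, also without overlap, for -0.61 (SE 0.29) and -0.30. Sf3b1, the scaffold of the complex, stood at 13.2, 45.3 and 49.6 TPM in IP, compared with 57.3, 59.2 and 24.2 TPM in Input, and -0.23 (SE 0.30) became -0.0048. Sf3b5 was the gene with a difference above 0, at 22.8, 16.9 and 19.2 TPM in IP, compared with 19.2, 19.2 and 9.73 in Input (0.57, SE 0.38, then 0.20). U2AF marks the end of the intron, with the product of U2af2 on the pyrimidine tract and that of U2af1 on the AG. U2af2 stood at 17.6, 19.9 and 19.2 TPM in IP, compared with 49.5, 15.02 and 26.9 in Input (-0.26, SE 0.53), for 0.081 without Input 3 and -0.18 without IP 1 and Input 3. U2af1 stood at 54.1, 59.3 and 53.6 TPM in IP, compared with 104, 96.1 and 25.5 TPM in Input. Input 1 and 2 were above and Input 3 below every IP library, and its difference of 0.05 was -0.53 without IP 1 and Input 3. Its relative U2af1l4 had 67.1, 68.1 and 80.3 TPM in IP, compared with 87.8, 115 and 44.1 in Input (0.15, then -0.15).

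PRPF proteins serve the tri-snRNP and the catalytic core. Of 9 Prpf genes, 5 stood above the median gene, and the median was 0.08. That median was below 0 in each fit that left out 1 library (-0.15 to -0.018), with a minimum mean TPM of 20 (-0.12), with quantile normalization (-0.016), without centring (-0.16) and without IP 1 and Input 3 (-0.01). Prpf8, the large scaffold at the heart of the spliceosome, stood at 10.8, 34.7 and 27.0 TPM in IP, compared with 19.3, 12.1 and 8.89 TPM in Input. IP 1 was below Input 1 and 2 in TPM, but on the centred scale all IP values lay above all Input values. The difference was 0.97 (SE 0.30, adjusted p = 0.649), and 1.24 (SE 0.29, limma adjusted p = 0.0411) without IP 1 and Input 3, where it was the member called higher; it was not called there without centring. Prpf6, a tri-snRNP bridge, stood at 16.7, 68.6 and 47.9 TPM in IP, compared with 59.7, 57.6 and 20.6 in Input (0.13, SE 0.31, then 0.26 without IP 1 and Input 3), and its sign changed without centring (-0.12). Prpf40b, linked to the U1 snRNP, had 12.4, 44.6 and 24.0 TPM in IP, compared with 37.8, 53.8 and 31.2 in Input (-0.47, SE 0.32, then -0.16). Prpf38a, which takes part in spliceosome activation, had 11.0, 20.1 and 23.9 TPM in IP, compared with 21.4, 39.0 and 19.8 in Input (-0.28, SE 0.31), and -0.28 became -0.099 without Input 3 and -0.10 without IP 1 and Input 3.

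LSm proteins form rings on U6 RNA in the nucleus and on decaying messenger RNA in the cytoplasm. Without centring, the Snrp, U2af and Lsm medians, which were above 0 with centring, were -0.17, -0.19 and -0.23. Of 12 Lsm genes, 7 stood above the median gene with a median of 0.02, and 5 above with a median of -0.20 without IP 1 and Input 3. The 7 genes of the nuclear ring had medians of 0.01 and -0.27, and the other 5 of 0.03 and 0.00. Lsm11, part of the U7 snRNP that trims histone transcripts, stood at 8.07, 24.9 and 12.2 TPM in IP, compared with 8.37, 10.2 and 8.80 TPM in Input. IP 2 was the highest and the groups overlapped, for 0.78 (SE 0.38) and 1.14 (adjusted p = 0.0928). Lsm5 stood at 10.8, 8.39 and 12.4 TPM in IP, compared with 22.4, 12.6 and 32.7 in Input (-0.70, SE 0.63), and the difference was -0.045 without Input 3 and -0.38 without IP 1 and Input 3. Lsm3 stood at 38.3, 44.7 and 56.0 TPM in IP, compared with 83.5, 98.5 and 25.4 in Input, for -0.13 and -0.56. Lsm4, a ring subunit, had 180.4, 125 and 142 TPM in IP, compared with 137, 164 and 104 TPM in Input (0.40, SE 0.43), for -0.060 without IP 1 and 0.12 without IP 1 and Input 3. Lsm12 had 37.6, 44.6 and 65.5 TPM in IP, compared with 60.7, 67.9 and 19.6 in Input (0.39, SE 0.31), for 0.18 without Input 3 and 0.045 without IP 1 and Input 3. Lsm7, picked after its values were seen, stood at 67.8, 21.3 and 73.0 TPM in IP, compared with 189, 141 and 7.27 TPM in Input. Input 3 was the lowest and Input 1 the highest, so that the difference was -0.08 with all libraries and -1.73 without IP 1 and Input 3 (adjusted p = 0.0793).

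DDX helicases unwind RNA or strip proteins from it. Of 16 Ddx genes, 6 stood above the median gene with a median of -0.16, and 9 above with a median of 0.09 without IP 1 and Input 3. Ddx49, a nucleolar helicase, stood at 14.8, 32.6 and 34.3 TPM in IP, compared with 22.0, 32.5 and 14.9 TPM in Input. On the centred scale all IP values lay above all Input values, for 0.45 (SE 0.25) and 0.60 (adjusted p = 0.177). Ddx39b, which joins splicing to messenger RNA export, stood at 52.1, 91.1 and 86.0 TPM in IP, compared with 180.2, 145 and 49.1 in Input, for -0.30 (SE 0.28) and -0.58. Its relative Ddx39 had 32.8, 35.3 and 27.5 TPM in IP, compared with 31.3, 33.4 and 18.8 in Input, for 0.47 (SE 0.33) and 0.24. Ddx5, a helicase of splicing and transcription, stood at 21.1, 116 and 103 TPM in IP, compared with 107, 117 and 73.8 TPM in Input, with IP 1 far below the rest. Its difference was -0.36 (SE 0.42) and 0.26 without IP 1 and Input 3. Ddx42, which associates with SF3b, had 7.32, 40.6 and 30.1 TPM in IP, compared with 42.5, 40.4 and 30.0 in Input, for -0.55 (SE 0.39) and 0.05.

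**Figure D4:**
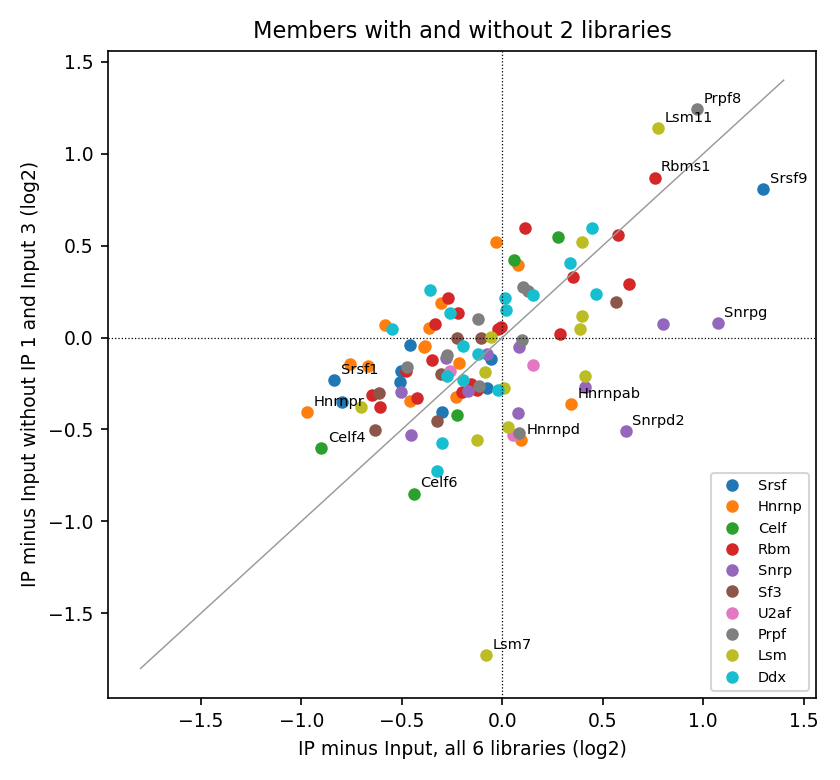
Difference between IP and Input (log2 units relative to the median gene) of each member with all 6 libraries (x axis) and without IP 1 and Input 3 (y axis), coloured by family, with a line where both are equal. Prpf8 lies at 0.97 and 1.24 and Celf4 at -0.90 and -0.60, and Lsm7 lies farthest from the line at -0.08 and -1.73.

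A list of 129 further RNA-processing genes, such as poly(C)- and poly(A)-binding proteins and cold-shock proteins, held 79 measured genes. Of these, 36 (45.6%) stood above the median gene, against 51.8% of all genes. The 79 genes had a median of -0.02 (0.02 without IP 1 and Input 3), and 0 passed the test in either direction with all libraries. All IP values lay above all Input values in 3 of the 79, against 6.93% of all genes. They lay below in 10 of the 79, against 9.71% of all genes. Ybx3, a cold-shock domain protein that binds messenger RNA, stood at 147.2, 124.1 and 116.9 TPM in IP, compared with 29.6, 35.5 and 34.96 TPM in Input. The groups were far apart, for 2.17 (SE 0.47, adjusted p = 0.649) and 2.15 (adjusted p = 0.000467) without IP 1 and Input 3. Its relative Ybx1 stood at 0.86 and the poly(C)-binding Pcbp3 at 0.67. On the lower side were Stau2, a double-stranded RNA-binding transport protein, at -0.77, Tra2b, an SR-like protein, at -0.67, and Cirbp, the cold-inducible relative of Rbm3, at -0.64. The differences of Ybx1, Pcbp3, Stau2, Tra2b and Cirbp were 0.61, 0.76, -0.58, -0.57 and -0.55 without IP 1 and Input 3. Genes on both sides were picked by smallest p, not by size, and the 79 differences ran from -0.80 to 2.18. Without IP 1 and Input 3, limma called 3 of the 79 higher and 0 lower, against 3.38% of all genes higher and 2.89% lower. The 3 were Ybx3, Pabpc1 (3.02) and G3bp1 (1.21), where Pabpc1 and G3bp1 are named for that call. G3bp1 stood at 55.3, 62.0 and 60.6 TPM in IP and at 28.1, 36.3 and 123.4 TPM in Input. Its Input 3 value thus lay above every IP value. With all 6 libraries the difference of G3bp1 was 0.48 (SE 0.79, limma adjusted p = 0.860). Pabpc1, a poly(A)-binding protein, stood at 843.1, 286.4 and 454.7 TPM in IP and at 59.0, 48.6 and 659.5 TPM in Input, so that Input 3 lay with the IP libraries.

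The Snrp and Lsm families, with median coding lengths of 378 and 337.5 bases, were highest in IP 1 and lowest in IP 2, and the members were therefore split by the length of their coding sequence. The 20 members under 500 bases had medians of 0.66, -0.71 and -0.0048 in IP 1, 2 and 3 and of 0.24, -0.02 and 0.26 in Input 1, 2 and 3. Their median difference was 0.02 with all libraries, with 11 above the median gene, and -0.27 without IP 1 and Input 3, with 5 above. The 20 members of at least 2000 bases had -0.05 with all libraries and 0.13 without IP 1 and Input 3, with 14 above. Among them was Prpf8, the member called higher without IP 1 and Input 3, with the longest coding sequence of all members (7005 bases). The 17 members from 500 to under 1000 bases had -0.28 and -0.18, and the 49 from 1000 to under 2000 bases -0.20 and -0.16. Across members, Spearman's rho between coding length and difference was -0.06 with all libraries, 0.29 without IP 1 and 0.31 without IP 1 and Input 3. The same values over 5354 genes with a coding length were 0.10, 0.39 and 0.38. Genes share the libraries and are not independent, so these are descriptions, and rho was no larger in members than in the table as a whole. The part of coding length in the differences of single members was not tested.

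**Figure D5:**
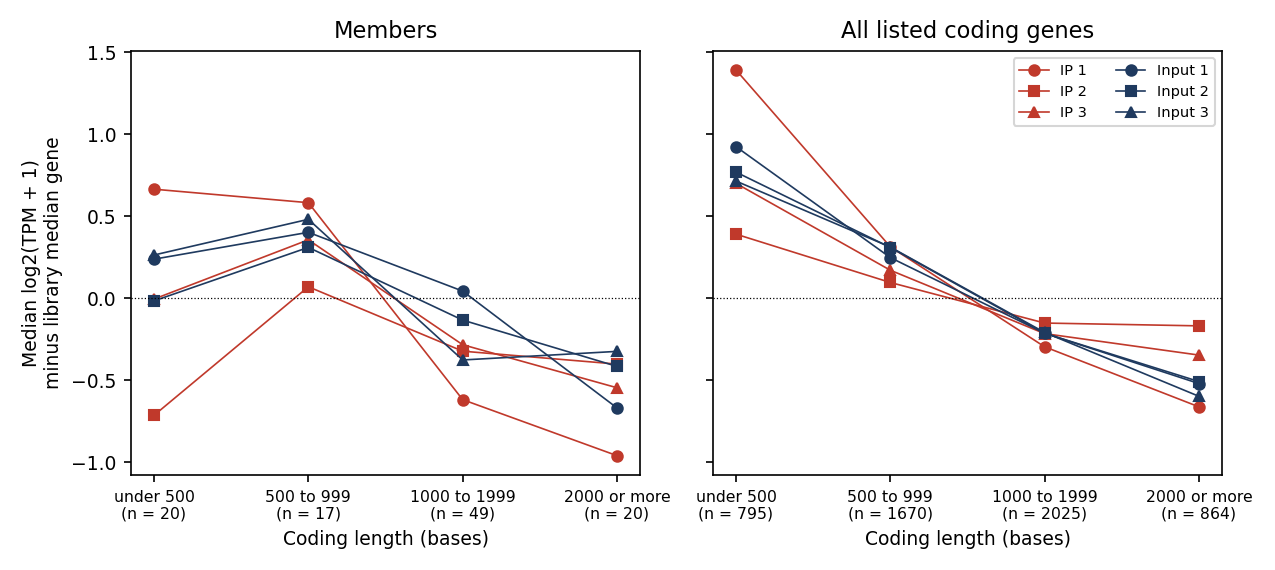
Median level in each library (y axis, log2(TPM + 1) minus the library's median gene) in 4 classes of coding length (x axis, bases), for the members on the left and all listed coding genes on the right, with 1 line per library. In the class under 500 bases IP 1 is the highest line and IP 2 the lowest in both panels, at 0.66 and -0.71 for the members.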

How the data were processed

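The deposited table gives TPM for 5538 genes in 3 IP and 3 Input libraries, which the authors made and its header line names as TPM. RSEM, DESeq and build mm10 are listed without version or role, per the submitters' processing notes, and no aligner is named in the sources used here. The smallest value is 7 TPM, so every listed gene reached that level in all 6 libraries. A gene under it in any library has no row, even where its level in the other group was high. The number of value columns left unused was 0. TPM keep no depth, so no counting interval or detection floor could be given, and the number of libraries limits the precision.

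TPM were transformed to log2(TPM + 1), the library's median gene was subtracted, and IP was compared with Input by limma 3.58.1 in R 4.3.3 (lmFit, eBayes with trend, group as the only term) over all genes, with Benjamini-Hochberg adjustment and a threshold of 0.05. A filter on a mean TPM of at least 1 left out 0 genes. These log2 differences understate the change of low genes. Replicates are pools of mice, and p-values rest on the spread between libraries of the same group. That spread holds differences between pools and in the handling of libraries, which cannot be told apart here. The smallest two-sided p of an exact permutation test of 3 against 3 libraries is 0.1.

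The members and lists were chosen with earlier results of these data known. Named genes are, per family, up to 2 with the smallest p in each direction, members past the threshold, the 5 most raised and 5 most lowered, and a set of well-known genes, 47 members in all; of the further RNA-processing genes, up to 3 in each direction are named. Gene positions and coding lengths come from the GENCODE annotation of GRCm38, which is mm10, and promoters from RefSeq on GRCm38.p6. Alternatives were a pseudocount of 0.1, a minimum mean TPM of 20, quantile normalization, no centring, the replicate number as a block, each library left out in turn and, chosen after the data were seen, IP 1 and Input 3 left out together with and without centring.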

Additional observations from a re-analysis of the deposited data

How the results depend on the processing

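Of the 47 named members, 43 had a value under all 13 alternatives, and 24 of these kept the sign of their difference in each. The other 4 fell under a mean of 20 TPM, and 3 of them kept their sign in the rest. A pseudocount of 0.1 and a minimum mean TPM of 20 moved no count by over 1.5 times and turned none of the named members that kept a value, but the minimum turned the Prpf median (-0.12). The labels do not say whether same-numbered IP and Input libraries came from the same mice. Their deviations from the group means correlated at -0.099, 0.25 and -0.17. Because IP 1 and Input 3 stood apart, these values cannot show whether the libraries were paired. A fit with a replicate block called 0 genes higher and 0 lower, as did the one without it. Quantile normalization turned Hnrnpa1 (-0.035), Celf1 (-0.0029) and the Prpf (-0.016) and Lsm (-0.015) medians. Without centring, the median gene lay at -0.23; 1 member (0.943%; 1.70% of all genes) had every IP value above every Input value, the medians were -0.37 for all members, -0.71 for Srsf, -0.61 for Hnrnp, -0.47 for Celf, -0.40 for Rbm, -0.17 for Snrp, -0.55 for Sf3, -0.19 for U2af, -0.16 for Prpf, -0.23 for Lsm, -0.40 for Ddx and -0.26 for the further RNA-processing genes, and Hnrnpa1 (-0.17), Celf1 (-0.19), U2af1l4 (-0.092), U2af1 (-0.19) and Prpf6 (-0.12) turned. Leaving out 1 library at a time gave 0 to 16 genes called higher and 0 to 1 called lower over the whole table, 5 to 12 members with all IP values above (4.72% to 11.3%; 9.10% to 18.1% of all genes) and 18 to 23 below (17.0% to 21.7%; 12.5% to 20.2% of all genes). Without IP 1 the Snrp, U2af, Lsm and Rbm medians turned (-0.19, -0.24, -0.22 and 0.045), and the Prpf median turned in each of these fits. Over these fits the differences ran from -0.43 to 0.75 for Hnrnpab, -0.29 to 0.65 for Hnrnpa1, -0.23 to 0.45 for Celf1, -0.19 to 1.91 for Snrpg, -0.87 to 0.018 for Snrpc, -0.11 to 0.38 for U2af1l4, -0.24 to 0.24 for U2af1, -0.86 to 0.081 for U2af2, -0.095 to 0.39 for Prpf6, -0.37 to 0.083 for Lsm3, -0.19 to 0.031 for Snrpb, -0.43 to 0.053 for Sf3b1, -0.60 to 0.10 for Ddx5, -0.56 to 0.21 for Rbm39 and -0.060 to 0.70 for Lsm4. Without both IP 1 and Input 3, 187 genes were called higher and 160 lower, with 1 member each, 20 members lay above and 37 below without overlap, the Ddx median was 0.090, and Hnrnpab (-0.36), U2af1l4 (-0.15), U2af1 (-0.53), Ddx42 (0.049), Ddx5 (0.26) and Rbm39 (0.22) turned. The same libraries without centring gave 121 higher and 936 lower, 15 members called lower and 66 without overlap below (62.3%; 56.4% of all genes). The medians there were -0.41 for all members, -0.52 for Srsf, -0.43 for Hnrnp, -0.71 for Celf, -0.24 for Rbm, -0.56 for Snrp, -0.20 for Ddx, -0.48 for Sf3, -0.47 for U2af, -0.30 for Prpf, -0.49 for Lsm and -0.27 for the further genes. Hnrnpab (-0.65), Snrpf (-0.21), Snrpg (-0.21), Sf3b5 (-0.092), U2af1l4 (-0.43), U2af1 (-0.82), Prpf6 (-0.032), Lsm12 (-0.24), Ddx39 (-0.053) and Lsm4 (-0.17) turned. The cause of these changes was not tested. The smallest adjusted p of a named member over the alternatives was 0.0129.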

Other observations

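The table also lists 6 Snrnp genes, whose symbols the prefix rule does not take. Snrnp200, the helicase that unwinds the U4 and U6 RNAs and a partner of Prpf8, stood at 10.2, 53.2 and 37.9 TPM in IP and at 29.9, 23.9 and 10.9 TPM in Input, for a difference of 0.70 (SE 0.36, limma adjusted p = 0.683). Snrnp27, a tri-snRNP protein, stood at 21.0, 41.8 and 38.9 TPM in IP and at 71.0, 65.6 and 64.5 TPM in Input, for -0.78 (SE 0.32, adjusted p = 0.649). Snrnp70, the U1 protein that contacts SR proteins, stood at 32.8, 73.7 and 61.9 TPM in IP and at 64.6, 63.0 and 34.7 TPM in Input, for 0.27 (SE 0.21). Snrnp25 (0.41), Snrnp40 (-0.18) and Snrnp35 (-0.25) had SE of 0.45, 0.23 and 0.23. None passed the test with all 6 libraries.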
